A study of Mus musculus with 10 samples.

Results

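Cdh17, Grhl2 and Esrp1 are genes that intestinal epithelial cells express and most other cells of the colon wall do not, and they were taken by name as a measure of how much epithelial RNA each library held. They are 3 of the 55416 rows of the deposited count tables. The libraries were made from whole colon of mice given 2% dextran sulfate sodium (DSS), a detergent that damages the colonic epithelium, in their drinking water for 7 days. Vista, the product of the gene Vsir, is an inhibitory receptor of T cells and myeloid cells. There were 5 Vista knockout libraries and 5 wild-type (WT) libraries. Knockout and WT libraries 1 to 3 stand in a first deposited table, and libraries 4 and 5 in a second. The genotype was labelled a VISTA knockdown for the first 3 knockout libraries and Vista-/- for the other 2. All 10 libraries had DSS, and no colon without DSS was analysed here. Age, sex and strain were not given in the labels. No label ties the 4 libraries of the second table to separate animals. Every p-value here comes from a test that took the library as its unit, which may not be the animal.

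Cdh17 encodes an intestinal cadherin, an adhesion protein of the lateral membrane of intestinal epithelial cells. Grhl2 encodes a grainyhead-like transcription factor that binds regulatory regions of junction genes, E-cadherin and claudins among them, and keeps epithelial cells epithelial. Esrp1 encodes an RNA-binding protein that directs splicing of transcripts such as those of Fgfr2, Cd44 and Ctnnd1 to their epithelial forms. In other epithelia Grhl2 and Esrp1 are both repressed when cells pass to a mesenchymal state, and the zinc-finger protein Zeb1 acts against them. In bulk tissue, fewer epithelial cells and less of such an RNA per epithelial cell cannot be told apart.

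Gene names were used only in the windows of mm10 where the counts follow the names, on chromosome 4 from 1 to 59.9 Mb and on chromosome 15 from 10.4 to 38.1 Mb. These windows held 1104 rows, 410 of them protein-coding, and between 8.21% and 8.75% of a library's counts. Of genes that practically every cell uses, such as those of ribosome, proteasome and translation proteins, 25 of 27 inside the windows had 500 counts or more over the 10 libraries, against 191 of 753 elsewhere (25.4%). The windows were themselves chosen on such genes. Total counts ran from 3691322 in WT 5 to 4071238 in knockout 2. WT 4 and WT 5 stood apart on the first principal component, at 45.1 and 50.3 against -26.9 to 6.47 for the other 8 libraries. The row of Vsir lies outside the windows, so the genotype labels were not checked.

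Cdh17 (ENSMUSG00000028217) lies on the plus strand at chr4:11758147-11817895, between Gem and Pdp1, and had 130813 counts over the 10 libraries. Esrp1 (ENSMUSG00000040728) lies close by on the minus strand, at chr4:11331933-11386783, and had 46935 counts. Ints8, a gene of the Integrator complex that every cell uses, lies 0.08 Mb below Esrp1 and had 5810 counts. Grhl2 (ENSMUSG00000022286) lies on the plus strand at chr15:37233036-37363569 and had 5418 counts. Its end is 0.74 Mb inside the end of the window, and Ywhaz, a gene of the abundant 14-3-3 family, lies 0.44 Mb below it with 80499 counts. The start of Grhl2 is overlapped on the other strand by the noncoding gene Gm16136, which had 873 counts. Whether the counting used strand was not given in the sources used here, so reads of Grhl2 and Gm16136 where they overlap cannot be told apart.

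The 3 genes differed widely in level. Per kilobase of annotated exon, Cdh17 averaged 756 CPM, that is counts scaled to a common library total, over the 10 libraries and ranked 4 of the 410 protein-coding genes in the windows. Esrp1 averaged 193 CPM per kilobase, at rank 31, and Grhl2 16.4 CPM per kilobase, at rank 176. The order Cdh17, Esrp1, Grhl2 was the same in every library. As levels per kilobase, Cdh17 stood at 758 ± 72.5 in knockout colons and 754 ± 44.9 in WT colons, Esrp1 at 179 ± 8.40 in knockout and 207 ± 12.4 in WT colons, and Grhl2 at 15.3 ± 2.31 in knockout and 17.4 ± 2.76 in WT colons (SD, n = 5 libraries per genotype). The spread of the transcription factor gene was the widest of the 3. Its coefficient of variation over the 10 libraries was 16.2%, of which counting alone would give 4.33%. For Esrp1 the coefficient was 9.39% and for Cdh17 7.53%, against 1.46% and 0.878% from counting.

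Cdh17 had 3126, 3638, 3290, 3823 and 3087 CPM in knockout libraries 1 to 5, against 3601, 3483, 3148, 3456 and 3173 CPM in WT libraries 1 to 5. The groups overlapped over nearly their whole range, with knockout 4 the highest of the 10 libraries and knockout 5 the lowest. The means were 3393 ± 324 CPM in knockout colons and 3372 ± 201 CPM in WT colons (SD, n = 5 each). The log2 fold change, with libraries scaled by the trimmed mean of M-values (TMM) and the table as covariate, was 0.04 ± 0.09 (SE). By edgeR's quasi-likelihood test with Benjamini-Hochberg adjustment its adjusted p was 0.839. Its 95% interval ran from -0.17 to 0.24, which is from 10.9% lower to 18.2% higher in knockout colons. A difference in the intestinal cadherin RNA was thus not detected, and the data allow any difference within that interval. The direction of so small a value turned when knockout 2, knockout 4 or WT 3 was left out, and without WT 4 and WT 5 it was 0.01 (adjusted p = 0.964 by edgeR). Wherever WT 4 and WT 5 were both left out, here and below, the fit had no table covariate. Knockout libraries of both tables were then set against WT libraries of the first table alone.

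Esrp1 had 1211, 1142, 1105, 1094 and 1078 CPM in knockout libraries 1 to 5, against 1410, 1232, 1285, 1366 and 1243 CPM in WT libraries 1 to 5. Every knockout library was below every WT library, although knockout 1 and WT 2 lay close together. Such a separation, with all knockout libraries lower, was found in 4.51% of the 9736 rows tested and in 9.88% of the 334 rows tested inside the windows. With TMM scaling the groups overlapped. Knockout 1 stood at 1250 and knockout 2 at 1213 CPM, against 1203 CPM in WT 2 and 1212 CPM in WT 5. On that scale 4.07% of all rows tested had every knockout library lower. The means without TMM were 1126 ± 53.0 CPM in knockout colons and 1307 ± 77.9 CPM in WT colons (SD, n = 5 each), the knockout mean being 86.2% of the WT mean. The log2 fold change was -0.19 ± 0.08 (SE). Its p by edgeR's quasi-likelihood test was 0.0398 unadjusted and 0.191 adjusted, so the lower Esrp1 level in knockout colons did not pass the threshold of 0.05. The 95% interval ran from -0.37 to -0.01, which is from 22.4% to 0.719% lower. Without WT 4 and WT 5, and with no table covariate, the log2 fold change of Esrp1 was -0.20 (adjusted p = 0.298 by edgeR).

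Grhl2 had 127.7, 127.2, 149.4, 102.7 and 151.4 CPM in knockout libraries 1 to 5, against 142.6, 131.7, 129.1, 160.6 and 186.4 CPM in WT libraries 1 to 5. The groups overlapped in the middle, with the lowest value in knockout 4 and the highest in WT 4 and WT 5, the libraries that stood apart. The means were 132 ± 19.9 CPM in knockout colons and 150.1 ± 23.8 CPM in WT colons (SD, n = 5 each). The log2 fold change was -0.15 ± 0.13 (SE) and its 95% interval ran from -0.43 to 0.13 (adjusted p = 0.498 by edgeR's quasi-likelihood test). Without WT 4 and WT 5, and with no table covariate, it was -0.01 (adjusted p = 0.970 by edgeR). Without knockout 4 it was -0.04, and without WT 5 alone it was -0.08. With the counts of the 3 overlapping noncoding rows added to Grhl2, an alternative chosen after seeing the data, it was -0.21 (adjusted p = 0.348 by edgeR).

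In edgeR's pooled comparison 0 of the 3 genes were called at an adjusted p under 0.05, while 548 of the 9736 rows tested were (5.63%), 263 higher (2.7%) and 285 lower (2.93%) in knockout colons. Inside the windows 28 of 334 rows were called (8.38%), 5 higher and 23 lower (6.89%). Esrp1 was the 1 gene of the 3 with an unadjusted p under 0.05, as were 2273 of the 9736 rows. DESeq2 and limma voom also called 0 of the 3. The median log2 fold change was 0.02 over all rows tested and -0.02 over those inside the windows.

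**Figure D1:**
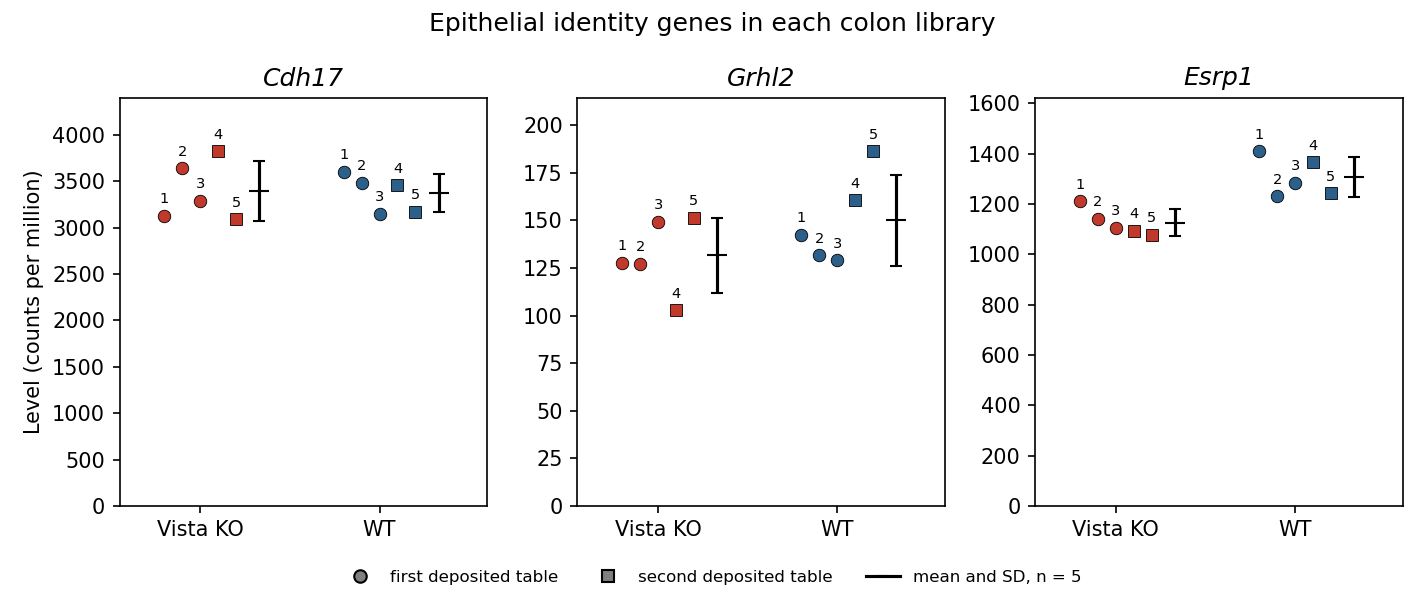
CPM of Cdh17, Esrp1 and Grhl2 in each library, knockout left of WT in each panel, with the mean and SD of 5 libraries and the deposited table marked by the symbol. The knockout libraries of Esrp1 lie between 1078 and 1211 CPM and the WT libraries between 1232 and 1410, whereas the groups of Cdh17 and Grhl2 overlap. In CPM, 4.51% of all rows tested have every knockout library below every WT library. With TMM scaling the groups of Esrp1 overlap too.

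Within the first table, with 3 libraries per genotype, Esrp1 averaged 1153 CPM in knockout colons and 1309 CPM in WT colons. In the second table, with 2 per genotype, it averaged 1086 CPM in knockout colons and 1304 CPM in WT colons. In CPM without TMM, all knockout libraries were below all WT libraries in both tables. That separation was also shown by 17.1% of the rows tested in the first table and 22.7% of those in the second. With the pooled TMM scaling, knockout 1 and knockout 2 stood above WT 2 of the first table. The log2 fold change of Esrp1 was -0.15 in the first table (95% interval -0.38 to 0.08, adjusted p = 0.398) and -0.26 in the second (-0.62 to 0.10, adjusted p = 0.505), both by edgeR's quasi-likelihood test. Without WT 1 the first-table value was -0.06, and without knockout 3 it was -0.09. For the splicing factor gene the direction was thus the same in both tables, with neither value past the threshold. The difference between the tables in that fold change was -0.11 (adjusted p = 0.820 by edgeR's interaction test).

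Grhl2 had nearly the same mean in both genotypes of the first table, 134.8 CPM in knockout colons and 134.5 CPM in WT colons. In the second table it averaged 127 CPM in knockout colons and 173.5 CPM in WT colons. Both knockout libraries were below both WT libraries there, as in 22.7% of the 9932 rows tested in that table. The log2 fold change was 0.04 in the first table (95% interval -0.19 to 0.26, adjusted p = 0.850) and -0.45 in the second (-1.01 to 0.12, adjusted p = 0.462), both by edgeR. The groups overlapped in the first table and not in the second, whose WT libraries are the ones that stood apart on the first principal component. The difference between the tables was -0.48, with an interval of -0.97 to 0.01 and an adjusted p of 0.352 by edgeR's interaction test, so a difference between tables was not shown. Cdh17 averaged 3351 CPM in knockout and 3411 CPM in WT colons of the first table, and 3455 CPM in knockout and 3315 CPM in WT colons of the second. Its log2 fold changes, 0.01 and 0.06 (adjusted p = 0.958 and 0.923 by edgeR), differed between the tables by 0.05 (adjusted p = 0.935). In the first table the sign of Cdh17 depended on the scaling, at -0.027 with library totals in place of TMM. The first table as a whole had 596 of 9829 rows called (6.06%), the second 85 of 9932 (0.856%) and the interaction 200 of 9736 (2.05%), with 0 of the 3 genes among them in any.

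**Figure D2:**
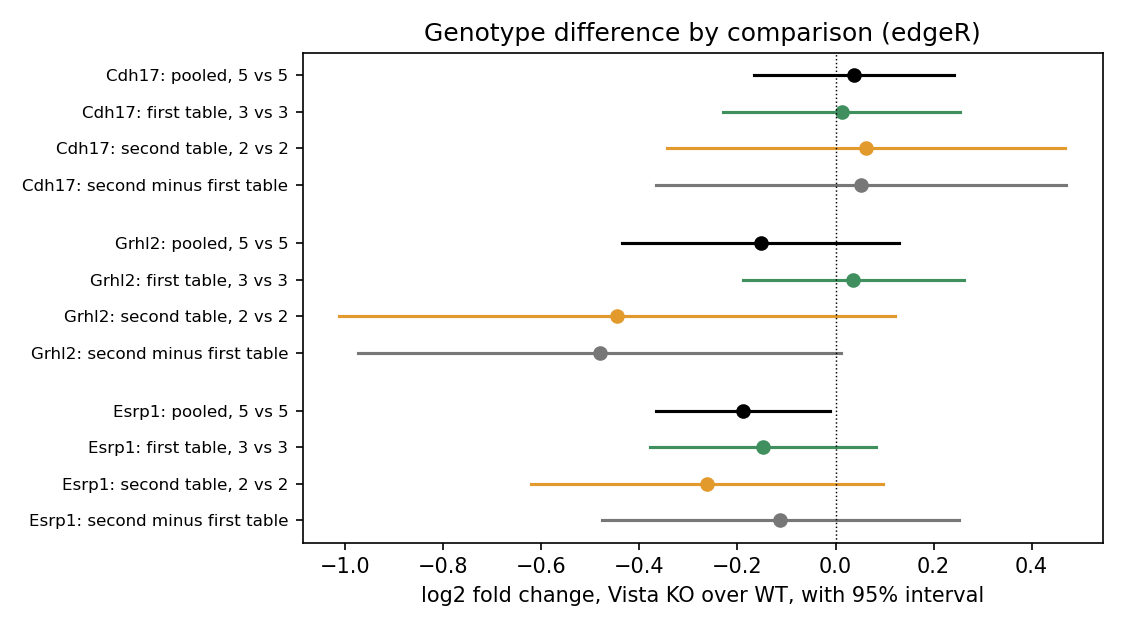
Log2 fold changes of Cdh17, Esrp1 and Grhl2, knockout over WT, for all libraries, for each deposited table and for the difference of the second table minus the first, with points at the estimate and bars for the 95% interval of edgeR's fit. The interval of Esrp1 for all libraries, -0.37 to -0.01, ends just below 0, and every other interval includes 0.

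Ratios of counts within a library compare the 3 genes with each other and do not depend on how libraries are scaled. Esrp1 counts were 38.7%, 31.4%, 33.6%, 28.6% and 34.9% of Cdh17 counts in knockout libraries 1 to 5, against 39.2%, 35.4%, 40.8%, 39.5% and 39.2% in WT libraries 1 to 5. Knockout 1 stood among the WT libraries, and the other 4 knockout libraries were below all of them. The ratio averaged 33.5% ± 3.80 in knockout colons and 38.8% ± 2.04 in WT colons (SD, n = 5 each). The log2 difference was -0.22, with a two-sided exact permutation p of 0.0333 when genotypes were exchanged within tables, and 0.1 after Benjamini-Hochberg adjustment over the 3 ratios. Within-table differences were -0.16 in the first and -0.32 in the second. That design has 120 arrangements, and the smallest two-sided p they can give is 0.0167.

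Grhl2 counts were 4.08%, 3.50%, 4.54%, 2.69% and 4.90% of Cdh17 counts in knockout libraries 1 to 5, against 3.96%, 3.78%, 4.10%, 4.65% and 5.87% in WT libraries 1 to 5. The groups overlapped, at means of 3.94% ± 0.877 in knockout and 4.47% ± 0.847 in WT colons (SD, n = 5 each), with knockout 4 lowest and WT 5 highest. The log2 difference was -0.19 (exact permutation p = 0.483, adjusted 0.725). It rested largely on single libraries, standing at -0.01 without knockout 4 and at -0.09 without WT 5. Grhl2 counts were 10.5%, 11.1%, 13.5%, 9.39% and 14.0% of Esrp1 counts in knockout libraries 1 to 5, against 10.1%, 10.7%, 10.1%, 11.8% and 15% in WT libraries 1 to 5. The groups overlapped, at means of 11.7% ± 1.98 in knockout and 11.5% ± 2.06 in WT colons (SD, n = 5 each). The log2 difference in this ratio of the transcription factor to the splicing factor was 0.03 (exact permutation p = 0.85, adjusted 0.85).

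**Figure D3:**
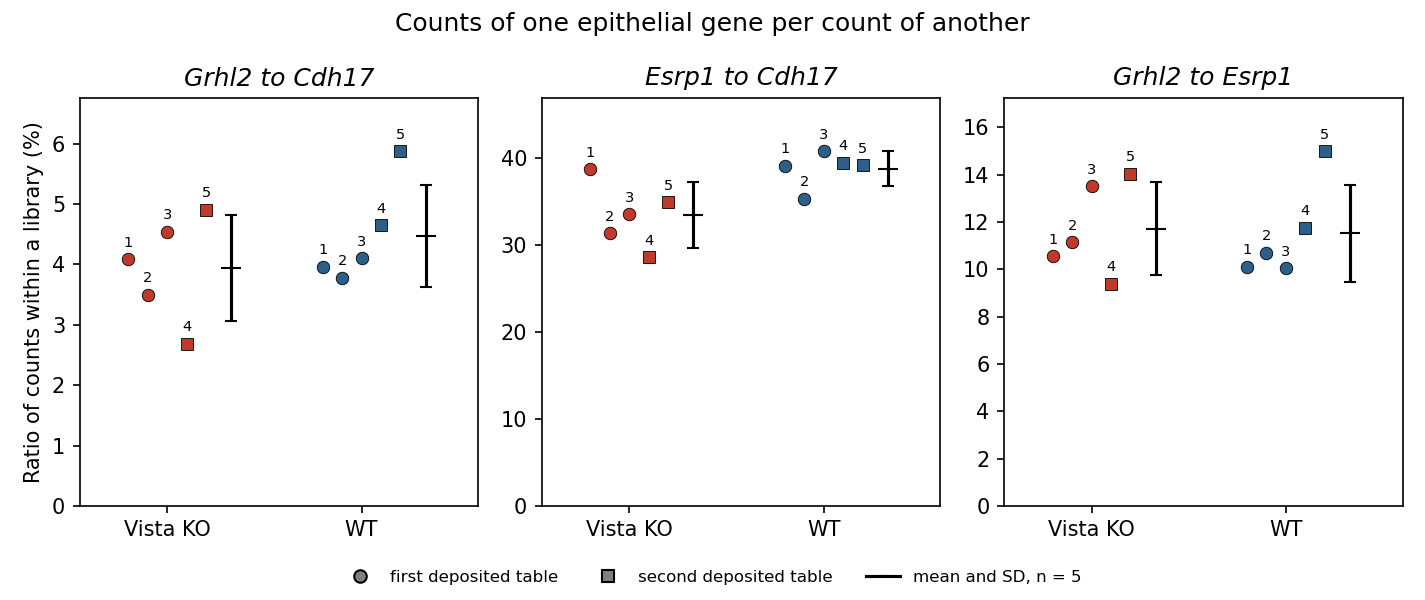
Counts of 1 gene as a percent of another within each library, for Esrp1 over Cdh17, Grhl2 over Cdh17 and Grhl2 over Esrp1, knockout left of WT, with the mean and SD of 5 libraries. Esrp1 over Cdh17 lies between 28.6% and 38.7% in knockout libraries and between 35.4% and 40.8% in WT libraries.

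The sum of the 3 genes, in which Cdh17 makes up 71.4%, was 4465, 4908, 4545, 5020 and 4317 CPM in knockout libraries 1 to 5, against 5153, 4846, 4562, 4983 and 4603 CPM in WT libraries 1 to 5. The groups overlapped, at 4651 ± 300 CPM in knockout colons and 4829 ± 251 CPM in WT colons (SD, n = 5 each).

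Whether the 3 genes varied together was read over the 10 libraries, in log2(CPM + 1), for the 3 pairs. Cdh17 and Esrp1 had a Pearson r of 0.0492 (permutation p = 0.889, adjusted over the 3 pairs 0.889) and a Spearman rho of 0.0909 (permutation p = 0.810). Without knockout 4 and knockout 5, the libraries farthest from the median of Cdh17, the r was 0.184, and 0.145 within the first table. Grhl2 and Esrp1 had an r of 0.319 (permutation p = 0.377, adjusted 0.566) and a rho of 0.297 (permutation p = 0.411). Without knockout 4 and WT 5, the libraries farthest from the median of Grhl2, that r was 0.0719, and -0.00577 within the first table. Cdh17 and Grhl2 had an r of -0.524 (permutation p = 0.121, adjusted 0.363) and a rho of -0.442 (permutation p = 0.205). Without knockout 4 and knockout 5 that r was -0.178, and among the 6 libraries of the first table it was 0.140, so the negative value rested on libraries of the second table, which at 4 libraries is too small for a value of its own. None of the 3 pairs showed a relation past the threshold, with 10 libraries behind each value.

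Other genes of the windows followed 1 of the 3 more closely. As a description, with no test, the likeness was Pearson's r of log2(CPM + 1) over the 10 libraries, taken over the 279 genes of at least 10 CPM that were tested. For Cdh17 the closest were Ywhaz at 0.808, the coronin gene Coro2a at 0.767, and the cyclin C gene Ccnc at 0.734. For Grhl2 they were the mitochondrial aldehyde dehydrogenase gene Aldh1b1 at 0.850, the syntaxin gene Stx17 at 0.849, and AI464131 at 0.847. For Esrp1 they were Cmbl, a carboxymethylenebutenolidase homologue that hydrolyses ester prodrugs, at 0.870, Gm16136 at 0.860, and Hint2, a mitochondrial nucleotide-binding hydrolase gene, at 0.836. The median r over the 279 genes was -0.01 for Cdh17, 0.02 for Grhl2 and 0.04 for Esrp1. Of the 3 genes nearest to Esrp1, Cmbl (log2 fold change -0.78, adjusted p = 0.00854 by edgeR) and Hint2 (-0.39, adjusted p = 0.0484) were lower in knockout colons. These genes were picked for following Esrp1 over the same libraries. In CPM without TMM, every knockout library was lower in Esrp1, so a difference in that direction is built into the choice and supports nothing. The Hint2 call was lost when any library but knockout 5 was left out (adjusted p up to 0.127 by edgeR), and that of Cmbl without WT 4 and WT 5 together (-0.65, adjusted p = 0.0566). Gm16136, the noncoding gene that overlaps Grhl2, lies on the other chromosome from Esrp1. Its counts were 119, 68, 59, 53 and 60 in knockout libraries 1 to 5, against 101, 92, 95, 120 and 106 in WT libraries 1 to 5, with knockout 1 the second highest of all and the other 4 knockout libraries the lowest.

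In all, 5 other genes that epithelial cells of the colon express lie in the windows, of 7 listed, and 4 had enough counts to be tested. The list was drawn up with earlier results of these data known. In knockout colons 1 of the 4 was lower and 0 higher by edgeR, and 3 were not called, where 6.89% of the rows tested inside the windows and 2.93% of all rows tested were lower. Their median log2 fold change was -0.0038, against 0.02 over all rows tested. Galnt12 encodes an enzyme that adds the first sugar of mucin-type O-glycans and lies at chr4:47091909-47123070. It had 360, 358, 409, 299 and 337 CPM in knockout libraries 1 to 5, against 448, 458, 558, 647 and 598 CPM in WT libraries 1 to 5. In CPM the groups did not overlap, as in 9.88% of the rows tested inside the windows and 4.51% of all rows tested, with all knockout libraries lower. The means were 353 ± 40.0 CPM in knockout colons and 542 ± 87.2 CPM in WT colons (SD, n = 5 each), with a log2 fold change of -0.59 ± 0.12 (SE, adjusted p = 0.0227 by edgeR). That call was lost without WT 4 (adjusted p = 0.0597), without WT 5 (0.0574) and without both (-0.45, 0.0975), all by edgeR. The other 3 tested genes did not pass. Epb41l4b, a FERM-domain protein of the epithelial cell cortex, averaged 1614 ± 145 CPM in knockout colons and 1542 ± 251 CPM in WT colons (log2 fold change 0.10, adjusted p = 0.618 by edgeR). Klf4, a transcription factor of differentiating epithelium and goblet cells, averaged 2741 ± 577 CPM in knockout and 2423 ± 580 CPM in WT colons (0.21, adjusted p = 0.476 by edgeR), and the goblet cell peptide gene Spink4 2029 ± 860 CPM in knockout and 2286 ± 936 CPM in WT colons (-0.11, adjusted p = 0.822 by edgeR; SD, n = 5 each). Aqp3, a water channel of the basolateral membrane, had 23 counts in all and was not tested.

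Scaling every library to the summed counts of Cdh17, Esrp1 and Grhl2 gives folds per count of these 3 genes in place of folds per library. On that scale Galnt12 stood at -0.56 in knockout colons, against -0.59 with TMM. Its adjusted p was 0.0562 by edgeR, and so it no longer passed the threshold. The number of rows called inside the windows was 15 of 334 on that scale, 4 higher and 11 lower, against 28 with TMM. Over all rows tested it was 367 of 9736, 224 higher and 143 lower, against 548 with TMM.

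**Figure D4:**
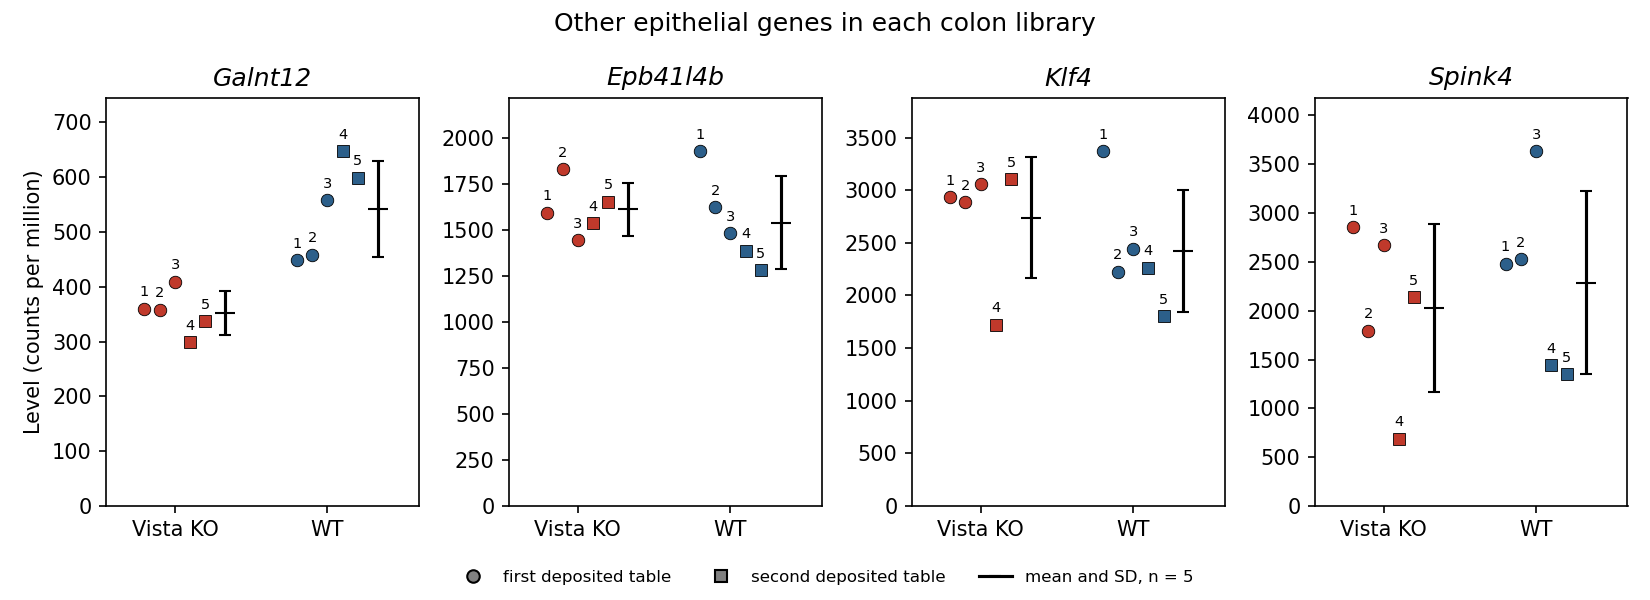
CPM of Galnt12, Epb41l4b, Klf4 and Spink4 in each library, knockout left of WT, with the mean and SD of 5 libraries. Galnt12 lies at 409 CPM or below in knockout libraries and at 448 or above in WT libraries, while the groups of Epb41l4b, Klf4 and Spink4 overlap. Of the rows tested inside the windows, 9.88% have every knockout library below every WT library in CPM.

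Relatives of Cdh17 in the windows were nearly silent. Of 5 other cadherin genes there, Cdh9 had 2 counts, Cdh12 13, Cdh18 17 and Cdh10 37 over the 10 libraries, and only Cdh6, a cadherin of kidney and nervous tissue, reached the test. It averaged 7.79 ± 2.72 CPM in knockout colons and 7.64 ± 2.32 CPM in WT colons (SD, n = 5 each; log2 fold change 0.03, adjusted p = 0.961 by edgeR). None of 24 genes listed for the Grhl2 and Esrp1 programmes, among them Grhl1, Esrp2, Cdh1, Ovol1, Zeb1 and Fgfr2, lies in the windows, so the targets and partners of both factors were not analysed here. The keratin genes Krt8, Krt18, Krt19 and Krt20 lie outside too, and their rows held 0 counts.

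Markers of other cell types were read beside Esrp1, since a whole colon holds all of them. The counts called lower in these lists stand against 2.93% of all rows tested and 6.89% of those inside the windows. The summed level of 9 stromal markers in the windows ran from 478 to 808 CPM in knockout libraries and from 653 to 1137 CPM in WT libraries, and of the 8 tested the metalloprotease gene Adamts12 was lower in knockout colons (-1.14, adjusted p = 0.013 by edgeR), a call that was lost without WT 4 and WT 5 (-0.98, adjusted p = 0.0971). The other 7 ran from -0.26 for Matn2 to 0.62 for Svep1, with Lpar1 at 0.11 and Npr3 at 0.18, none of them called, and the median of the 8 was -0.08. Osr2, a transcription factor gene of mesenchyme, had 114.1 CPM in WT 4 and 478 CPM in WT 5, against 0.491 to 3.21 CPM in the other 8 libraries. It is part of the stromal sum, so its 478 CPM is within the highest WT sum, the 1137 CPM of WT 5. The smooth muscle gene Tpm2 ran from 488 to 1339 CPM in knockout libraries and from 828.6 to 1323 CPM in WT libraries (-0.41, adjusted p = 0.329 by edgeR). Of 5 lymphocyte genes, summed at 179 to 305 CPM in knockout libraries and 127 to 387 CPM in WT libraries, the T cell factor gene Tox was lower in knockout colons (-0.59, adjusted p = 0.043 by edgeR). The other 4 stood on the other side in the pooled fit without passing, Pax5 at 0.63, Sit1 at 0.56, Cd72 at 0.39 and Bach2 at 0.31, with adjusted p from 0.539 to 0.733 by edgeR. The pooled median of the list was 0.39. In the first table these 4 were lower in knockout colons, Pax5 at -0.85, Bach2 at -0.77, Cd72 at -0.70 and Sit1 at -0.39. Of them Bach2 was called (adjusted p = 0.0301 by edgeR). In the second table they were higher, Pax5 at 3.73, Sit1 at 2.42, Cd72 at 2.37 and Bach2 at 2.33. Pax5 (adjusted p = 0.0315) and Cd72 (0.0406) were called there by edgeR. The Tox call was lost when any library but WT 1 or WT 3 was left out, with an adjusted p of up to 0.115 by edgeR. The B cell gene Pax5 was at 10.7 CPM in WT 4 and 5.15 CPM in WT 5, against 55.4 to 148 CPM elsewhere. Lyn, a kinase gene of myeloid and B cells, ran from 253 to 465 CPM in knockout libraries and from 161 to 318 CPM in WT libraries (0.61, adjusted p = 0.072 by edgeR); it was called higher in knockout colons by DESeq2 (adjusted p = 0.0205) and by edgeR without knockout 4 (0.0380), without knockout 5 (0.0369) or with no filter on low counts (6.35e-06). With no filter edgeR also called Tpm2 lower (-0.39, adjusted p = 0.00926) and Pax5 (0.67, 0.00115) and Svep1 (0.64, 8.02e-05) higher in knockout colons. In the main fit the adjusted p by edgeR was 0.329 for Tpm2, 0.645 for Pax5 and 0.132 for Svep1. Each gene's own spread among libraries carried little weight with no filter. The p-values of that run, that of Lyn included, thus cannot be read like those of the main fit. Osr2 was called lower in that run too (-5.73, adjusted p = 3.61e-87 by edgeR), its high values lying in WT 4 and WT 5 alone. It was not tested in the main pooled fit, was called lower in the second table (-6.99, adjusted p = 0.0445 by edgeR), and was called in several fits without 1 library. The neuropeptide gene Penk was lower in knockout colons (-1.02, adjusted p = 0.031 by edgeR), 1 of the 2 neuronal genes tested, the other, Basp1, standing at 0.19 (adjusted p = 0.757). Their sum ran from 83.5 to 201 CPM in knockout libraries and from 194 to 238 CPM in WT libraries. The Penk call was lost without knockout 1 (adjusted p = 0.0686), WT 1 (0.0671), WT 2 (0.0730) or WT 4 (0.0775), all by edgeR. The part of these cell types in the Esrp1 and Galnt12 values was not tested.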

How the data were processed

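The authors deposited 2 tables of raw read counts, with a row for each Ensembl gene identifier. Per the submitters' processing notes, reads were aligned with HISAT2 and counted with featureCounts 2.0.1; the notes name the build GRCh38, a human assembly, with HISAT2 2.2.1 for the first 6 libraries and mm10 for the other 4. The annotation and the strand setting are not given in the sources used here. GENCODE M21 named 52083 of the 55416 identifiers, and the unnamed rows held 0.358% to 0.410% of a library's counts and stayed in the tests. No 2 libraries were alike within counting noise, the closest pair having a chi-square per row of 4.56.

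CPM was each count over its library total. Differences were tested in R 4.3.3 with edgeR 4.0.16 (TMM, its expression filter, quasi-likelihood test, Benjamini-Hochberg adjustment over all rows tested, threshold 0.05), with the deposited table as covariate in the pooled fit, in each table alone, and for the interaction of genotype and table. Alternatives were DESeq2 1.42.0, limma 3.58.1 voom, other scalings, no filter, no table covariate and leaving out libraries. Ratios were compared with exact permutation tests that listed every arrangement. Correlation coefficients were computed with scipy 1.17.1 and tested with 100000 permutations. Named besides the 3 genes were the 3 genes most alike to each, the nearest universally used genes and the genes of the lists inside the windows. The 3 genes and the lists were chosen with earlier results of these data known. Of the listed genes, 1 is not reported here and was left out of the counts and median of its list. Of the 3 genes, counting error was largest for Grhl2. Its coefficient of variation from counting alone was 4.33%, against 16.2% over the 10 libraries.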

Additional observations from a re-analysis of the deposited data

Results flagged for a closer look

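Among 56 groups of 5 libraries examined for a library standing far from the other 4, 4 held one, where chance gives about 1 in 20, or 2.8. Klf4 was at 1720 CPM in knockout 4, against 2886 to 3105 CPM in the other knockout libraries. Tgfbr1, a receptor gene of the TGF-beta pathway, was at 156.4 CPM in WT 1, against 175.7 to 182.6 CPM in the other WT libraries. Svep1, an extracellular matrix gene, was at 139.3 CPM in knockout 5, against 93.1 to 106.2 CPM in the other knockout libraries, and Reck, a membrane inhibitor of matrix proteases, was at 35.9 CPM there, against 15.2 to 20.7 CPM. None of Cdh17, Esrp1 and Grhl2 had such a library in either genotype.

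The genotype difference of 3 lymphocyte genes differed between the deposited tables by edgeR's interaction test, Pax5 with an adjusted p of 0.00377, Cd72, a B cell receptor gene, with 0.00567, and Bach2, a transcription factor gene of lymphocytes, with 0.00317. All 3 were lower in knockout colons in the first table and higher in the second. In the second table the WT side consists of WT 4 and WT 5 alone.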

How the results depend on the processing

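None of Cdh17, Esrp1 and Grhl2 was called under any alternative run. The pooled log2 fold change of Esrp1 kept its direction in all 17 alternatives, from -0.23 to -0.16 (adjusted p 0.0960 to 0.635), and that of Grhl2 in all 18, from -0.21 to -0.01. Leaving out 1 library moved the pooled value of Cdh17 between -0.027 and 0.070, its first-table value between -0.066 and 0.085, the first-table value of Grhl2 between -0.0093 and 0.11, that of Esrp1 between -0.20 and -0.059, the log2 ratio of Grhl2 to Cdh17 between -0.28 and -0.010, and that of Grhl2 to Esrp1 between -0.054 and 0.15. Scaling to library totals turned the first-table value of Cdh17 to -0.027. With all 252 arrangements of the 10 libraries, not only those within tables, the Esrp1 to Cdh17 ratio, -0.22, had an adjusted exact permutation p of 0.0476.

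The fit without WT 4 and WT 5 had no table covariate. The rows called numbered 848 of 9736 with DESeq2, 1260 of 28202 with no filter and 78 of 10115 without WT 4 and WT 5. Without 1 library they numbered 226 of 9939 (without WT 4) to 990 of 9902 (without knockout 5). Inside the windows they numbered 43 of 334, 65 of 650, 3 of 343, and 10 of 339 to 43 of 337 in the same order. Scaled to the 3 genes they numbered 15 there and 367 over all rows. The alternatives for other genes were chosen after seeing the data. Without WT 4 and WT 5, the log2 fold change turned for Bach2 (-0.50), Cd72 (-0.56), Cdh6 (-0.21), Epb41l4b (-0.037) and Pax5 (-0.51). Leaving out 1 library also turned that of Bach2 (-0.11 to 0.58), Basp1 (-0.075 to 0.44), Cd72 (-0.018 to 0.68), Cdh6 (-0.17 to 0.19), Npr3 (-0.0062 to 0.36), Pax5 (-0.012 to 1.08), Reck (-0.37 to 0.024), Spink4 (-0.44 to 0.053) and Tgfbr1 (-0.18 to 0.014). The cause was not tested. No paired analysis was possible because knockout and WT libraries share no replicate number in the labels.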
